A study of Mus musculus with 12 samples.

Results

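The genes described here belong to the transcriptional response to low oxygen and do not encode glycolytic enzymes. They are Hif1a, Adm, Vegfa, Bnip3, Ero1a, Ndrg1, P4ha1 and P4ha2. Every probe set whose gene symbol in the array's annotation, or an older synonym of it, was 1 of these 8 names was taken, which gave 12 of the 12488 probe sets in the table. Hif1a, Ero1a, Ndrg1 and P4ha2 have more than 1 probe set each, and the other genes have 1. The RNA came from mouse embryonic fibroblasts of the DBA strain, which lack their own KSR1 (KSR1 -/-) in all 4 groups. KSR1 is a scaffold protein that brings the kinases Raf, MEK and ERK together downstream of Ras, and H-RasV12 is an oncogenic, constitutively active form of Ras. One line carried KSR1, H-RasV12 and green fluorescent protein (GFP) and is called the double line below. The KSR1 line carried KSR1 and GFP, the H-RasV12 line carried H-RasV12 and GFP, and the GFP line carried GFP alone. Each line was measured on 3 Affymetrix arrays, so a group stands for 1 line and not for several lines made independently. Whether a line was 1 clone, which promoter drove the transgenes and the oxygen level of the cultures are not given in the sources used here.

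In normal oxygen, prolyl hydroxylases of the Egln family mark the HIF-1alpha protein, the product of Hif1a, for destruction by the Vhl ubiquitin ligase. In low oxygen, or where growth signals raise its synthesis, HIF-1alpha accumulates, pairs with Arnt and binds a short core motif, ACGTG or GCGTG, near its target genes. The main control of HIF-1alpha is on its protein, which an array does not measure. Adm and Vegfa encode secreted peptides that act on blood vessels, Bnip3 a mitochondrial protein of mitophagy and cell death, Ero1a an oxidase of the endoplasmic reticulum, Ndrg1 a cytoplasmic protein induced by stress and differentiation, and P4ha1 and P4ha2 the catalytic subunits of collagen prolyl 4-hydroxylase. All but Hif1a are known targets of HIF-1.

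The promoters of Adm, Bnip3, Ero1a, P4ha2 and P4ha1 are shown so that the motif can be read beside the signals. Adm, Bnip3 and Ero1a had a higher signal in the double line than in each other line. P4ha2 was higher there than in the KSR1 line but not clearly higher than in the GFP line, and P4ha1 was not higher. Each is the 250 bases before the RefSeq start of transcription, from the C57BL/6J reference (GRCm38.p6) and not from the DBA cells, written 5′ to 3′ on the gene's own strand. Capitals mark ACGTG or GCGTG on either strand, so that CACGT and CACGC are the motif read on the other strand. The stretch for Adm is chr7:110627407-110627656 on the plus strand, for Bnip3 chr7:138909507-138909756 on the minus strand, for Ero1a chr14:45318573-45318822 on the minus strand, for P4ha2 chr11:54100674-54100923 on the plus strand and for P4ha1 chr10:59323046-59323295 on the plus strand.
Adm: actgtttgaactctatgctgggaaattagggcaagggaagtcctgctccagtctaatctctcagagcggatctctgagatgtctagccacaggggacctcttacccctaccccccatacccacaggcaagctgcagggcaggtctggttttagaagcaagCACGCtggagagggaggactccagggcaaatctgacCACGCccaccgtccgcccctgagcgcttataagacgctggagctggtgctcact
Bnip3: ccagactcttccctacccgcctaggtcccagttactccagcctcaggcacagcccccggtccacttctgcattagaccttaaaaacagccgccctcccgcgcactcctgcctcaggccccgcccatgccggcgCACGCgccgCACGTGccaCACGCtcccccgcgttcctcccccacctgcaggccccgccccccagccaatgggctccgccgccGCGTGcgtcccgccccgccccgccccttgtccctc
Ero1a: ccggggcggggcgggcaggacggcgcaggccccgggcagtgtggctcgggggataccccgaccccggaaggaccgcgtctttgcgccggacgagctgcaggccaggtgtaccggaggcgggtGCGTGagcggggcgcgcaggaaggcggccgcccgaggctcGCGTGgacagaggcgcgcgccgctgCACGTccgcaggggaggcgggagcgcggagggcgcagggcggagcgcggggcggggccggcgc
P4ha2: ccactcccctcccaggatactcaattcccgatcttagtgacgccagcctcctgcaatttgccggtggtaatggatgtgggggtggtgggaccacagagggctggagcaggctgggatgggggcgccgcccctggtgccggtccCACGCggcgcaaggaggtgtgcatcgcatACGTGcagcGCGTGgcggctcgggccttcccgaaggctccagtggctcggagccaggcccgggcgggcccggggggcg
P4ha1: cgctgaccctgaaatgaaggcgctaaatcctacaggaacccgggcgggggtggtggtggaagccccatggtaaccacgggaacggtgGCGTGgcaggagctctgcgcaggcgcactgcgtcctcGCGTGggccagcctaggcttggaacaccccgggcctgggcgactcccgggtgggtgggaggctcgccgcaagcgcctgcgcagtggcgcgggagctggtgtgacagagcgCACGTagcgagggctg
Matches that overlapped by 3 bases or more were counted as 1 site, and CACGTG, which reads the same on both strands, is also the E-box of other factors. Adm held 2 sites, 90 and 54 bases before the start, and Bnip3 held 4, the closest 35 bases before it. Ero1a, P4ha2 and P4ha1 held 3 each. Of the 8 stretches found for 7 of the genes, 7 held the motif, and so did 38.6% of the 32851 stretches of all genes. Hif1a held 2 sites. Of the pair of Vegfa starts, both on the minus strand, the upstream one (stretch chr17:46032378-46032627) held none within these 250 bases. The downstream one (stretch chr17:46025164-46025413) held 2 sites. These Vegfa sites thus lie after the upstream start, and their stretch is among the 7 with the motif. Ndrg1 was not matched to a stretch. A match describes letters and not binding.

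**Figure D1:**
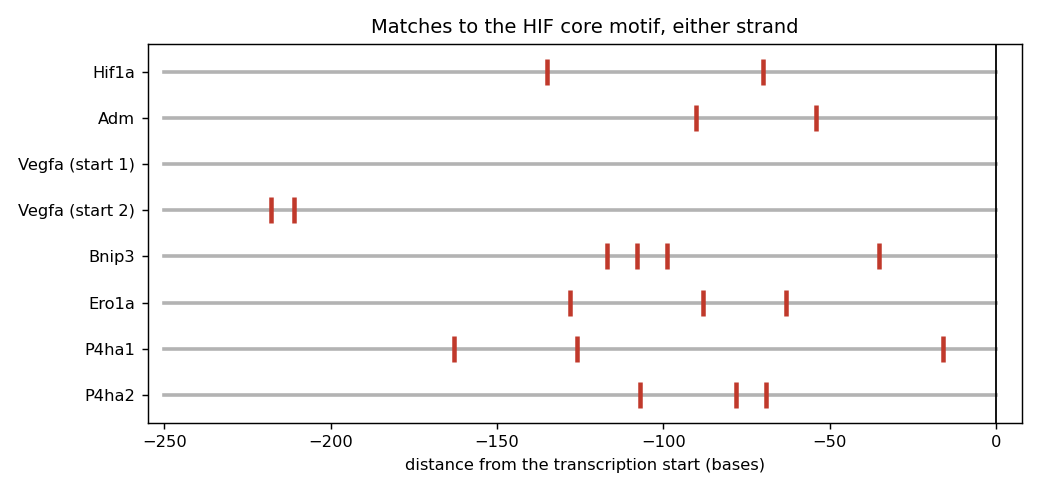
Places of ACGTG or GCGTG on either strand in the 250 bases before each RefSeq start; the x axis is the distance from the start in bases and each red tick is 1 site. Bnip3 has 4 sites, Ero1a, P4ha1 and P4ha2 have 3 each, and the first Vegfa start has 0.

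The values are MAS5 signals, a brightness per probe set on a linear scale, with the same 2% trimmed mean of 500.3 on every array and medians of 160.6 to 216.5. Differences were tested with limma on log2(signal + 23) over the 6897 probe sets with a signal above 181.4, the table's median, on 3 arrays or more, and a difference is called where the Benjamini-Hochberg adjusted p over these 6897 is under 0.05. Nothing states that the arrays of a line came from separate cultures, so p-values measure the spread between arrays of 1 line, which may be technical, and 3 arrays a line limit the precision. All 12 probe sets of the 8 genes passed the filter. Adm passed through the double line and 2 other arrays only, so its levels elsewhere are near the background of the array. Arrays of 1 group correlated at 0.911 to 0.965 over the tested probe sets and arrays of different groups at 0.808 to 0.956. On replicate 1 the 3′ control probe set for 18S RNA read 345, 1114, 395 and 146 in the GFP, H-RasV12, KSR1 and double lines. Each was the lowest of its line. The middle beta-actin control read 4266 and 4484 on replicate 1 of the GFP and double lines, and 13861 or more on their other arrays. The part of these control levels in the results was not tested. As a check of the labels, the Ksr1 probe set 92765_s_at read 235 ± 83.6 in the double line and 915 ± 699 in the KSR1 line, against 22.2 ± 9.14 in the H-RasV12 line and 67.4 ± 66.5 in the GFP line (SD, n = 3 each). In the KSR1 line it read 933 and 1605 on replicates 1 and 2 and 207 on replicate 3. GFP replicate 1 read 144 and double-line replicate 3 read 141, so this probe set did not separate every array of the GFP and double lines. The other Ksr1 probe set, 92764_at, averaged between 199.7 and 294 in all 4 lines.

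Fibroblast markers, all 10 of which are on the array and 8 of which passed the filter, summed to 18498 to 29072 in the double line, 30086 to 34358 in the KSR1 line, 45599 to 63397 in the H-RasV12 line and 45199.9 to 61085 in the GFP line. The summed epithelial markers were 1680.2 to 2083 in the double line and 912 to 1630.3, 615 to 875 and 644 to 1048 in the KSR1, H-RasV12 and GFP lines, with Krt19 and Cdh1 past the filter of the 6 on the array. Endothelial markers, 2 of 9 past the filter, summed to 435 to 642 in the double line and to 2249 or more on every array of the other lines. Leukocyte markers, 1 of 7 past the filter, summed to between 336 and 1007 on all 12 arrays. Markers of 1 list differed from each other. The brighter Krt19 probe set read 1209 in the double line and 418, 90.2 and 118 in the KSR1, H-RasV12 and GFP lines, while Cdh1 read 595 in the double line and 758, 525 and 579.5 in the same others, and Epcam and Krt8 averaged at most 20.4 in any line. The brighter of the Cd34 probe sets read 193 in the double line, against 2458, 2393 and 2306 in the KSR1, H-RasV12 and GFP lines, while Cdh5, Tie1 and Tek averaged at most 44.5 in any line. Among fibroblast markers the brighter Col1a1 probe set averaged 2133 in the double line and 18526 in the GFP line, while the brightest Pdgfra probe set averaged 1517 in the double line and 1433 in the GFP line, and Fn1 1885 and 2131 in the same order. The part of these markers in the results was not tested. In RNA from whole cultures, fewer cells of a type and less RNA per cell cannot be told apart.

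Adm, Bnip3, Ero1a and Ndrg1 were higher in the double line than in the other 3 lines, where Adm alone was near background. Against the KSR1 line, 10 of the 12 probe sets were called higher in the double line and 0 lower, where 8.16% of all tested probe sets were called higher. Against the H-RasV12 line 9 of 12 were called higher (7.1% of all tested), and against the GFP line 7 of 12 (7.71% of all tested). Adm had to differ to enter the tested set, and with a filter on 6 arrays, which drops it, the counts were 9, 8 and 6, while with no filter they were 8, 9 and 6. These 3 comparisons share the double-line arrays, so they are not independent. For H-RasV12 against GFP, limma called none of the 12 (0.0725% of all tested called, 1 of the 12 at an unadjusted p under 0.05), and for KSR1 against GFP it also called none (11.8% of all tested called, 4 of the 12 at an unadjusted p under 0.05). The median difference of the 12 was 1.69 on the log2 scale for the double line against KSR1, where that of all tested probe sets was -0.07. It was 1.67 against H-RasV12 and 1.79 against GFP, and -0.18 for H-RasV12 and -0.26 for KSR1 against GFP. When the arrays were centred on their medians, the median of all tested probe sets shifted by 0.17 for the double line against KSR1, and the share of calls that were higher was 69.5% in place of 54.1%, while the count for the response genes stayed at 10.

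**Figure D2:**
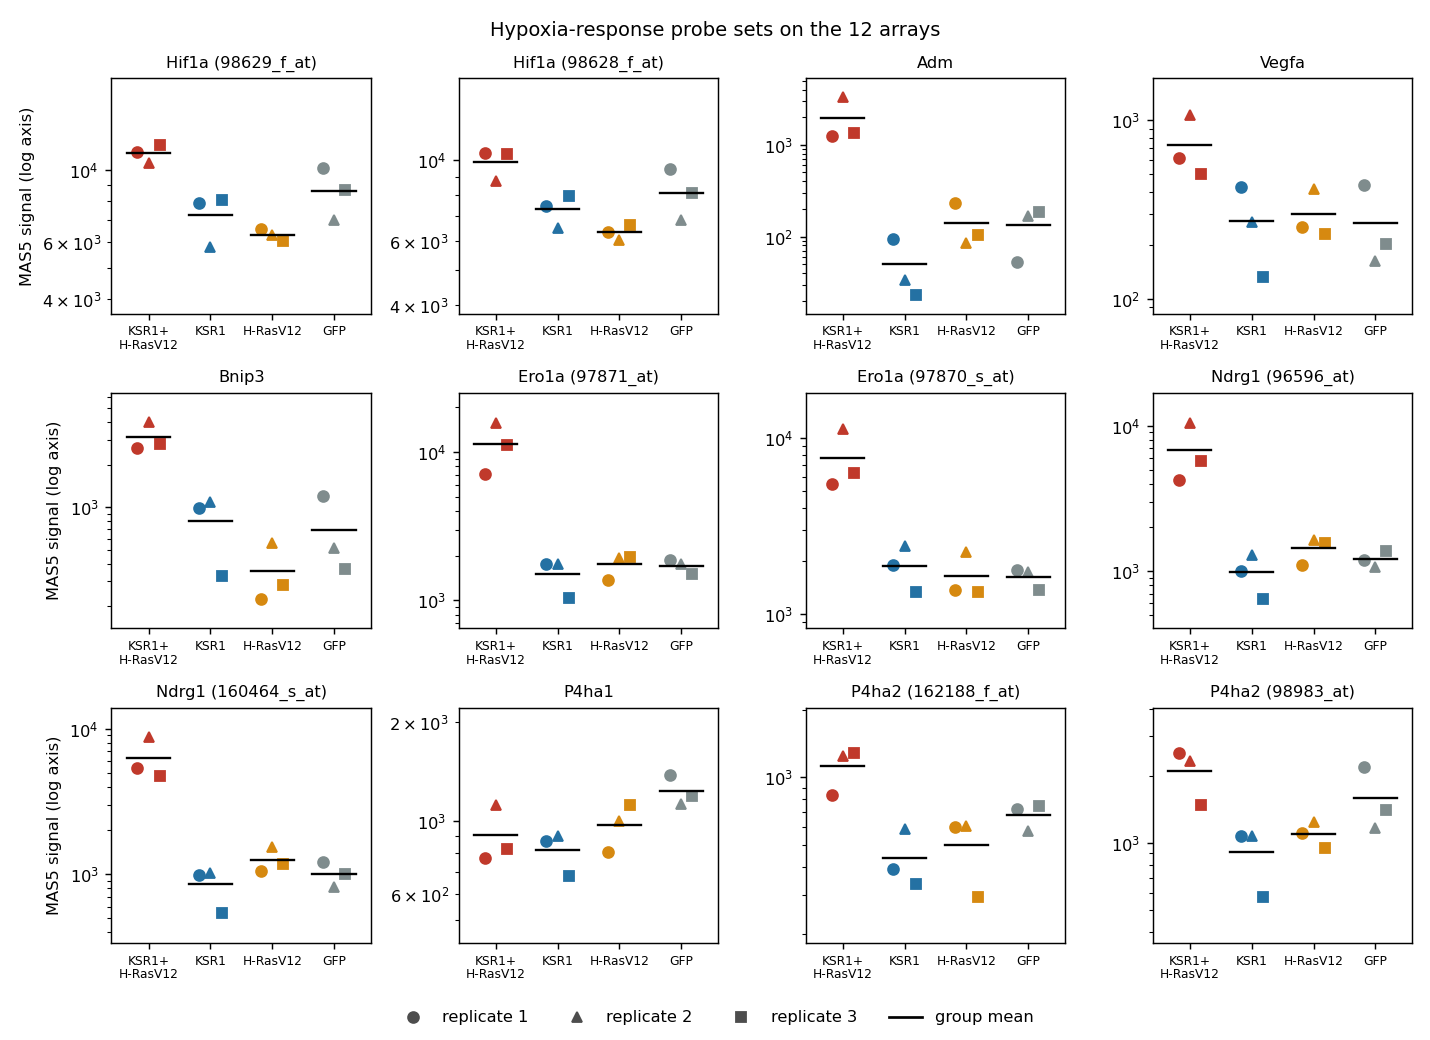
MAS5 signal (log axis) of the 12 probe sets on each array, with the KSR1+H-RasV12 line first and the KSR1, H-RasV12 and GFP lines after it; symbols mark the 3 replicates and bars the group means. Adm, Bnip3, Ero1a and Ndrg1 stand clear of the other lines on all 3 double-line arrays, and P4ha1 does not.

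Hif1a, the gene for the oxygen-regulated subunit itself, was bright in all lines. The probe set 98629_f_at read 11329, 10479.8 and 11933 in the double line, 7873, 5766 and 8089 in the KSR1 line, 6593, 6298 and 6052 in the H-RasV12 line and 10087.5, 7000.3 and 8689.5 in the GFP line. All 3 double-line arrays lay above the other 9, by little over the highest GFP array. The level was called higher in the double line than in the H-RasV12 line (log2 difference 0.83 ± 0.18 SE, limma adjusted p = 0.00601) and the KSR1 line (0.65 ± 0.18, limma adjusted p = 0.0275), but not than in the GFP line (0.40 ± 0.18, 95% interval 0.01 to 0.79, limma adjusted p = 0.173). The second probe set, 98628_f_at, had the same order of means, 9893 ± 976 in the double line, 7323 ± 761 in the KSR1 line, 6339.5 ± 288 in the H-RasV12 line and 8132 ± 1297 in the GFP line (SD, n = 3 each). Its difference passed against H-RasV12 (0.64 ± 0.17, limma adjusted p = 0.0195) and missed against KSR1 (0.43 ± 0.17, limma adjusted p = 0.108), where the fit with the replicate number as a block called it (limma adjusted p = 0.0326). Both names end in _f_at, which marks probes shared with other sequences, so the source of the Hif1a signal is uncertain. For Hif1a 98629_f_at, the call against KSR1 was lost without KSR1 replicate 2 (limma adjusted p = 0.143) and without double-line replicate 1, 2 or 3 (0.0511, 0.0539 and 0.082). It was also lost with no filter (0.0599), on replicates 2 and 3 alone (0.0574) and on quantile-normalized signals (0.0885). For Hif1a 98628_f_at, the call against H-RasV12 was lost without H-RasV12 replicate 1 or 2 (0.0584 and 0.0742) and without double-line replicate 1 or 3 (0.0503 and 0.0633), on replicates 2 and 3 alone (0.0878) and on quantile-normalized signals (0.0675).

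Of the genes that sense oxygen or pair with HIF-1alpha, 9 of 19 listed were tested. In the double line 1 was called higher and 1 lower against KSR1, 1 and 1 against H-RasV12, and 1 and 0 against GFP. Of all tested probe sets, 8.16%, 7.1% and 7.71% were called higher in these comparisons and 6.92%, 7.71% and 7.93% lower. The median difference of the list from KSR1 was -0.17 on the log2 scale, against -0.07 for all tested probe sets. Siah2 was the one called lower against H-RasV12 (-0.75 ± 0.24, limma adjusted p = 0.0493). The one that rose was Egln1, the main HIF prolyl hydroxylase and itself a HIF target, at 1951, 2543 and 2159 in the double line, 903, 988 and 644 in the KSR1 line, 536, 748 and 626 in the H-RasV12 line and 1371, 779 and 627 in the GFP line. Its 3 double-line arrays lay above all others. The difference was 1.38 ± 0.26 against KSR1, 1.77 ± 0.26 against H-RasV12 and 1.31 ± 0.26 against GFP (limma adjusted p = 0.00206, 0.000295 and 0.00293). Cited2, which competes with HIF-1alpha for the coactivators p300 and CBP, fell in the double line to 1873 ± 734, against 4315 ± 75.8 in the KSR1 line (-1.27 ± 0.22, limma adjusted p = 0.00124). Cited2 read 2148 ± 33.2 in the H-RasV12 line and 1910.3 ± 134 in the GFP line, and was called higher in the KSR1 line than in the GFP line (1.17 ± 0.22, limma adjusted p = 0.00296). Arnt, the partner of HIF-1alpha, was not called (-0.34 ± 0.28, limma adjusted p = 0.479), nor was Vhl (0.18 ± 0.44, limma adjusted p = 0.832).

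Adm encodes adrenomedullin, a vasodilator peptide. Its signal was 1261, 3312 and 1337 in the double line. It was 93.0, 33.3 and 23.05 in the KSR1 line, 231, 85.6 and 104 in the H-RasV12 line and 53.3, 167 and 185 in the GFP line. The lowest double-line array stood several times above the highest of the other 9, and the 3 other lines overlapped one another in part. Because Adm entered the tested set through the double line and read near background elsewhere, its p-values are given from the fit with no filter, and the size of its difference depends on the pseudocount. On the log2(signal + 23) scale the difference was 4.75 against the KSR1 line, and it was 5.08 with a pseudocount of 10 and 4.26 with 50 (limma adjusted p = 0.000114 with no filter). Against the H-RasV12 line the difference was 3.57, with 3.69 and 3.34 at those pseudocounts (limma adjusted p = 0.000658 with no filter). Against the GFP line it was 3.64, with 3.78 and 3.39 (limma adjusted p = 0.000527 with no filter). The order of the other lines was not settled: Adm in the H-RasV12 line differed from GFP by 0.07 (95% interval -0.97 to 1.12, limma adjusted p = 1). The KSR1 line averaged 49.8 ± 37.8, against 135 ± 71.5 in the GFP line (SD, n = 3 each), a difference of -1.11 ± 0.49 that was not called (limma adjusted p = 0.174). That difference was called without GFP replicate 1 (-1.57, limma adjusted p = 0.0495) and with replicates 2 and 3 of each line alone (-1.97, limma adjusted p = 0.00598). With replicates 2 and 3 alone, the log2 difference of the double line was 5.39 from KSR1, 4.18 from H-RasV12 and 3.42 from GFP, and both KSR1 arrays then lie close to the pseudocount.

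Vegfa encodes the main endothelial growth factor of the VEGF family. Its signal was 616, 1074 and 501 in the double line, 423, 269 and 133 in the KSR1 line, 253, 413 and 232 in the H-RasV12 line and 435, 165 and 204 in the GFP line. The double-line arrays lay above all 9 others, but replicate 3 by little. The difference was 1.39 ± 0.41 against KSR1 (2.63-fold, limma adjusted p = 0.0335) and 1.41 ± 0.41 against GFP (2.66-fold, limma adjusted p = 0.0296). Against H-RasV12 it was 1.19 ± 0.41 (95% interval 0.32 to 2.07) and missed the threshold (limma adjusted p = 0.0677). Without double-line replicate 2, the brightest array, Vegfa was called against neither KSR1 nor GFP (1.09 and 1.10, limma adjusted p = 0.142 and 0.139). The call against KSR1 was also lost without KSR1 replicate 2 or 3 (0.0805 and 0.133) and the call against GFP without GFP replicate 2 or 3 (0.119 and 0.107). With no filter both calls were lost (0.07 and 0.0641). The difference from H-RasV12 was called without GFP replicate 1 or KSR1 replicate 3 (0.0391 and 0.041), arrays that enter that comparison only through the shared estimate of the spread, and also after quantile normalization (0.0382), median centring (0.0191) and with the replicate block (0.0269). The KSR1, H-RasV12 and GFP lines averaged 275 ± 145, 299.5 ± 99.1 and 268 ± 146 and did not differ beyond their spread.

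Of 17 listed receptors and relatives of both ligands, 8 were tested, and in the double line 0 were called higher and 2 lower against KSR1, 1 higher and 3 lower against H-RasV12, and 0 higher and 3 lower against GFP. Of all tested probe sets, 8.16%, 7.1% and 7.71% were called higher in these comparisons and 6.92%, 7.71% and 7.93% lower. Vegfb, a VEGF family ligand, was the one called higher, at 1284 ± 330.4 in the double line, against 760 ± 33.4 in the H-RasV12 line (0.71 ± 0.22, limma adjusted p = 0.0433). Ramp3, which turns the receptor Calcrl into an adrenomedullin receptor, read 96.7 ± 92.3 in the double line and 812 ± 422 in the KSR1 line (-2.98 ± 0.52). The H-RasV12 and GFP lines read 79.7 ± 36.9 and 37.7 ± 15.0, and the KSR1 line differed from the GFP line by 3.69 ± 0.52. Ramp3 passed the filter through the KSR1 line, where it was high, so its p-values are not given, though it counts among the genes called lower. Ramp2, the other partner for adrenomedullin, read 44.8 ± 34.2 in the double line, against 225 ± 35.7 in the H-RasV12 line (-1.97 ± 0.40, limma adjusted p = 0.00349). Calcrl itself did not pass the filter, with group means of 7.95 to 78.2. Nrp1, a co-receptor for VEGF, was 336 ± 67.0 in the double line, 995 ± 478 in the KSR1 line, 1874 ± 292 in the H-RasV12 line and 1945 ± 744 in the GFP line, and the double line was called lower in each comparison (-1.41, -2.40 and -2.39, limma adjusted p = 0.0099, 0.000181 and 0.000171). Vegfd, another ligand of that family, was called lower than in H-RasV12 (-1.19 ± 0.28) and GFP (-1.47 ± 0.28, limma adjusted p = 0.00867 and 0.00197). The VEGF receptor genes Kdr and Flt1 did not pass the filter.

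Bnip3, whose product sits in the outer mitochondrial membrane, read 2627, 3995 and 2779 in the double line. It read 992, 1091 and 329 in the KSR1 line, 224, 562 and 282 in the H-RasV12 line and 1195, 519 and 366 in the GFP line. Every double-line array was above every other array, and the remaining lines overlapped. The widest difference was from the H-RasV12 line (3.13 ± 0.46, 8.78-fold, limma adjusted p = 0.000309), followed by GFP (2.29 ± 0.46, 4.88-fold, limma adjusted p = 0.00337) and KSR1 (2.08 ± 0.46, 4.21-fold, limma adjusted p = 0.00698). The H-RasV12 line averaged 356 ± 181, against 693 ± 441 in the GFP line (SD, n = 3 each), a difference of -0.85 ± 0.46 that was not called (95% interval -1.84 to 0.15, limma adjusted p = 0.952).

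Ndrg1 is known as a gene repressed by Myc and raised by hypoxia and metal stress. The probe set 96596_at read 4266, 10514 and 5710.1 in the double line, 1006, 1292 and 645 in the KSR1 line, 1104, 1647 and 1563 in the H-RasV12 line and 1187, 1069 and 1381 in the GFP line. The probe set 160464_s_at read 5329.6, 8715 and 4721 in the double line, 994, 1024 and 541 in the KSR1 line, 1049, 1537 and 1180.1 in the H-RasV12 line and 1207, 818 and 1009 in the GFP line. On both, the double line stood apart and the other lines lay close together. The log2 differences of the probe sets were 2.72 ± 0.31 and 2.84 ± 0.28 against KSR1 (6.59-fold and 7.18-fold, limma adjusted p = 4.3e-05 and 1.2e-05). They were 2.15 ± 0.31 and 2.26 ± 0.28 against H-RasV12 and 2.38 ± 0.31 and 2.57 ± 0.28 against GFP. The _s_at probe set may also measure related transcripts, and it followed the other with a Pearson r of 0.984 over the 12 arrays.

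Of 12 listed relatives of Bnip3 and Ndrg1, 9 were tested. In the double line 3 were called higher and 2 lower against KSR1, 3 and 0 against H-RasV12, and 4 and 1 against GFP. The shares of all tested probe sets called higher were 8.16%, 7.1% and 7.71%, and those called lower 6.92%, 7.71% and 7.93%. Ndrg4, of the same family as Ndrg1, read 3609 ± 877 in the double line, 391 ± 201 in the KSR1 line, 745 ± 96.1 in the H-RasV12 line and 969 ± 13.6 in the GFP line, and was called higher in the double line in all 3 (3.21 ± 0.27, 2.22 ± 0.27 and 1.84 ± 0.27). Ndrg2 read 601 ± 156 in the double line and 339 ± 132 in the KSR1 line, and 7.20 ± 1.80 in the H-RasV12 line and 64.6 ± 52.8 in the GFP line. The KSR1 line differed from the GFP line in Ndrg2 by 2.16 ± 0.40, while the difference between the double line and the KSR1 line was not called (0.82 ± 0.40, limma adjusted p = 0.208). The double line differed from the GFP line by 2.97 ± 0.40 and from the H-RasV12 line by 4.34 ± 0.40. The Ndrg2 level in the H-RasV12 line lies under the pseudocount, which sets the size of that fold. Ndrg2 passed the filter through the double and KSR1 lines, where it was high. Its p-values against the H-RasV12 and GFP lines are therefore not given, though it counts among the genes called higher there. Mcl1, an anti-apoptotic BCL2 family member, rose in the double line against KSR1 (1560 ± 416 against 644 ± 150, 1.24 ± 0.24, limma adjusted p = 0.00218). Bcl2l1, which encodes BCL-XL, fell (835 ± 502 against 1646 ± 289, -1.09 ± 0.30, limma adjusted p = 0.0252).

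Ero1a passes electrons from protein disulfide isomerase to oxygen and so forms disulfide bonds in secreted proteins. The probe set 97871_at read 7075, 15595 and 11069 in the double line, 1757, 1761 and 1037 in the KSR1 line, 1373, 1917 and 1949 in the H-RasV12 line and 1860.2, 1761 and 1514 in the GFP line. The probe set 97870_s_at read 5466, 11181 and 6325 in the double line, 1887, 2415 and 1324 in the KSR1 line, 1359, 2258 and 1323 in the H-RasV12 line and 1773, 1723 and 1373 in the GFP line. The double line stood above all other arrays on both, with replicate 2 the highest, and the other 3 lines overlapped. The log2 differences were 2.84 ± 0.28 and 1.99 ± 0.29 against KSR1 (7.15-fold and 3.96-fold, limma adjusted p = 1.2e-05 and 0.000304), 2.62 ± 0.28 and 2.17 ± 0.29 against H-RasV12, and 2.63 ± 0.28 and 2.16 ± 0.29 against GFP. In the H-RasV12 line Ero1a differed from the GFP line by 0.02 and -0.02 on the log2 scale, with 95% intervals of -0.58 to 0.61 and -0.64 to 0.61.

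The alpha subunits of collagen prolyl 4-hydroxylase differed from each other. P4ha2 98983_at read 2525, 2327 and 1485 in the double line, 1075, 1079.8 and 571 in the KSR1 line, 1107, 1247 and 951 in the H-RasV12 line and 2195, 1168 and 1411 in the GFP line. P4ha2 162188_f_at read 836, 1249 and 1277 in the double line, 391, 587 and 335 in the KSR1 line, 599, 606 and 292 in the H-RasV12 line and 725, 576 and 746 in the GFP line. On both, the double line was above the KSR1 and H-RasV12 lines with no overlap, and the GFP line lay between, overlapping the double line on 98983_at. P4ha2 was called higher in the double line than in the KSR1 line on both (1.22 ± 0.29 and 1.32 ± 0.28, limma adjusted p = 0.01 and 0.00511). Against H-RasV12, 162188_f_at was called (1.18 ± 0.28, limma adjusted p = 0.0109) and 98983_at lay at the threshold (0.90 ± 0.29, limma adjusted p = 0.0503). Against GFP neither was called (0.42 ± 0.29 and 0.68 ± 0.28, limma adjusted p = 0.402 and 0.132). The P4ha2 call against H-RasV12 was lost for 162188_f_at without H-RasV12 replicate 3 (0.0541), and for 98983_at the difference was called without GFP replicate 1 or 2 (0.0319 and 0.0484), when KSR1 replicate 3 was left out (0.0282) and without double-line replicate 3 (0.0242). It was also called after median centring (0.0163), with a pseudocount of 50 (0.0486) and with the replicate block (0.0119). In the KSR1 line against GFP, P4ha2 98983_at was not called (-0.80 ± 0.29, limma adjusted p = 0.0924), but it was with the replicate block (0.027) and after median centring (0.0375). The probe sets of P4ha2 correlated at 0.772 over the 12 arrays, below the 0.968 to 0.984 of the other genes with more than 1 probe set. As for Hif1a, the ending of 162188_f_at marks probes shared with other sequences, so the source of its signal is uncertain.

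P4ha1 read 772, 1125 and 825 in the double line, 871, 901 and 683 in the KSR1 line, 810.0, 1001 and 1119 in the H-RasV12 line and 1386, 1132 and 1197 in the GFP line. The GFP arrays were the highest, above all 9 others, and the rest overlapped. No comparison called P4ha1 with the signals as deposited. Its difference was 0.14 ± 0.20 for the double line against KSR1 (95% interval -0.29 to 0.56), -0.11 ± 0.20 against H-RasV12 and -0.45 ± 0.20 against GFP (limma adjusted p = 0.716, 0.8 and 0.15). The KSR1 line against GFP came nearest (-0.59 ± 0.20, limma adjusted p = 0.069), and was called after median centring (0.0348).

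Of 28 listed partners of these enzymes, from collagen chains to chaperones of the endoplasmic reticulum, 21 were tested. In the double line 2 were called higher and 2 lower against KSR1, 1 and 6 against H-RasV12, and 1 and 9 against GFP. Of all tested probe sets, 8.16%, 7.1% and 7.71% were called higher in these comparisons and 6.92%, 7.71% and 7.93% lower, so the counts against KSR1 are near those shares. The beta subunit gene P4hb, which both alpha subunits need, was not called against KSR1 (-0.16 ± 0.19, limma adjusted p = 0.633). The basement membrane collagens Col4a1 and Col4a2 rose against KSR1, with Col4a1 at 2029 ± 526 in the double line and 169 ± 78.7 in the KSR1 line (3.48 ± 0.28, limma adjusted p = 2.25e-06). In the H-RasV12 and GFP lines Col4a1 read 1641 ± 221 and 1597 ± 162, and it fell in the KSR1 line against GFP (-3.16 ± 0.28, limma adjusted p = 5.02e-06). The fibrillar collagens Col1a1 and Col5a2 fell in the double line against KSR1 (-2.83 ± 0.73 and -1.07 ± 0.23, limma adjusted p = 0.0172 and 0.0051). Col1a1 was uneven within the double line, with 4299, 1921 and 178 on its 3 arrays. Against GFP the widest called differences were lower, at -3.94 for Col1a1, -2.33 for Col5a2, -1.59 for Col3a1 and -1.40 for Col5a1. Ero1b, the paralog of Ero1a, read 236 ± 39.4 in the double line, 162 ± 40.6 in the KSR1 line, 88.7 ± 29.8 in the H-RasV12 line and 77.2 ± 19.1 in the GFP line. Ero1b was the one called higher against H-RasV12 and against GFP (1.24 ± 0.31 and 1.37 ± 0.31). It passed the filter through the double line and only 1 other array, so its p-values are not given.

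The design allows the H-RasV12 response to be compared with and without KSR1 in a single test, as the difference between the double line and the KSR1 line minus that between the H-RasV12 line and the GFP line. In this interaction 9 of the 12 probe sets were called higher and 0 lower, where 4.16% of all tested probe sets were called higher. The 9 include Adm, which entered the tested set through the double line. The count was 8 with a filter on 6 arrays, which drops Adm, and 9 with no filter. Adm passed at 4.68 on the log2(signal + 23) scale (4.99 and 4.21 with pseudocounts of 10 and 50, limma adjusted p = 0.00351 with no filter), a size that its near-background signals in the other lines leave loose. Bnip3 passed at 2.92 ± 0.66 (limma adjusted p = 0.0137), Ero1a at 2.82 ± 0.39 and 2.00 ± 0.41 (limma adjusted p = 0.000681 and 0.00866) and Ndrg1 at 2.49 ± 0.44 and 2.54 ± 0.39 (limma adjusted p = 0.00286 and 0.00138). P4ha2 also passed on both probe sets (1.82 ± 0.40 and 1.70 ± 0.41, limma adjusted p = 0.0123 and 0.0202), although it was not called between the double line and GFP. P4ha2 162188_f_at differed from GFP by -0.64 in the KSR1 line and by -0.49 in the H-RasV12 line, neither of them called. Hif1a passed on 98629_f_at (1.08 ± 0.26, limma adjusted p = 0.0204) and missed on 98628_f_at (0.78 ± 0.24, limma adjusted p = 0.063). Vegfa did not pass (1.17 ± 0.58, 95% interval -0.07 to 2.42, limma adjusted p = 0.277), nor did P4ha1 (0.48 ± 0.28, 95% interval -0.12 to 1.07, limma adjusted p = 0.375). The interaction call was lost for Hif1a 98629_f_at without replicate 2 of the H-RasV12 or of the KSR1 line (0.0525 and 0.0609), on replicates 2 and 3 alone (0.0633) and on quantile-normalized signals (0.051). For P4ha2 98983_at it was lost without H-RasV12 replicate 3 or double-line replicate 2 (0.054 and 0.0534) and with replicates 2 and 3 alone (0.0683).

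**Figure D3:**
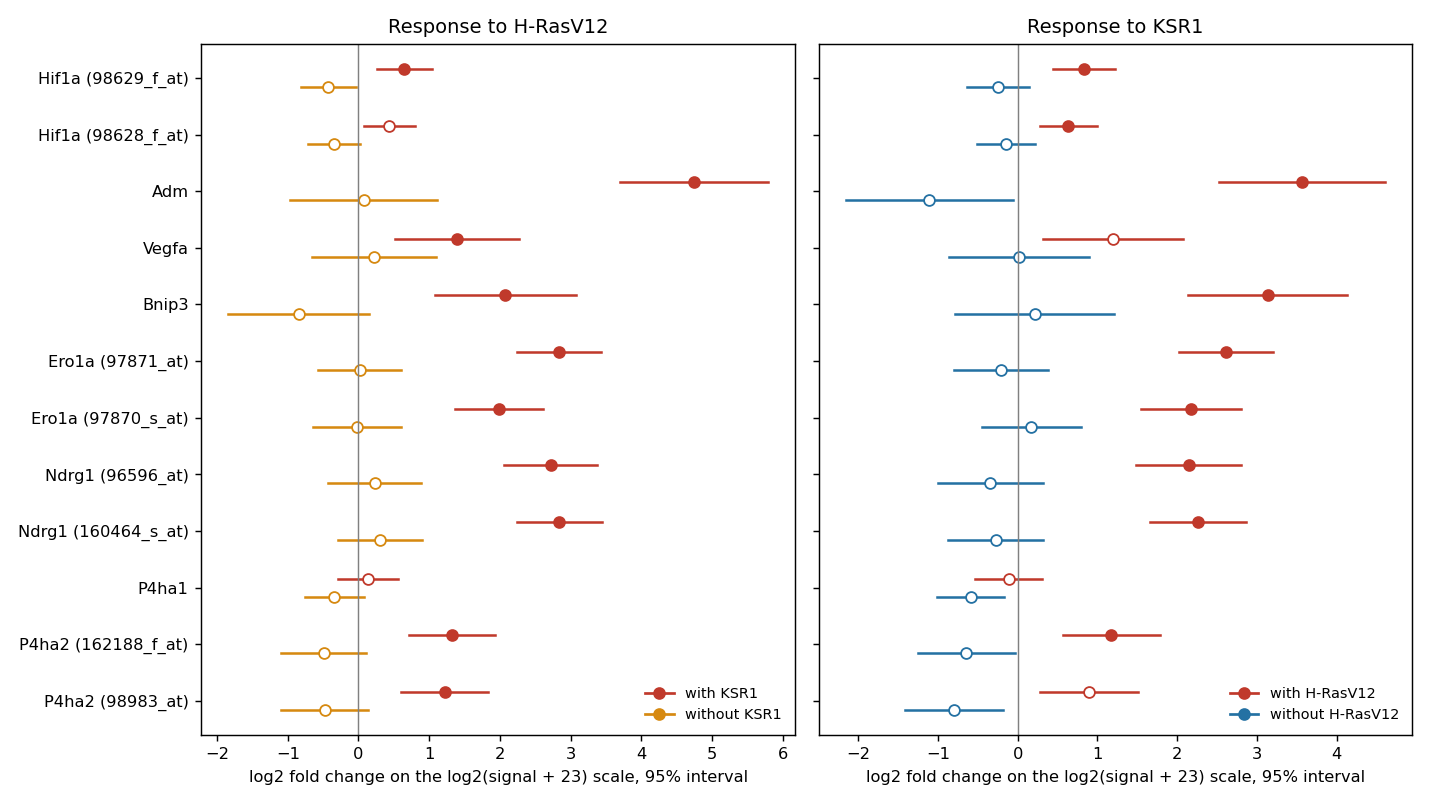
Log2 fold change with its 95% interval for each probe set; the left panel gives the response to H-RasV12 with KSR1 (double line against KSR1) and without it (H-RasV12 against GFP), and the right panel the response to KSR1 with and without H-RasV12. Filled points have an adjusted p under 0.05, and every filled point belongs to a comparison of the double line.

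Across single arrays, 9 of the 12 probe sets had all 3 double-line arrays above all 9 others, as 6.57% of all tested probe sets did. The exceptions were Hif1a 98628_f_at, P4ha1 and P4ha2 98983_at. Adm, which entered the tested set through the double line, is among the 9. Within the double line, replicate 2 was the highest of the group for 8 of the 12 probe sets, against 34.1% of all tested probe sets. Both Hif1a probe sets were lowest on that array. In the KSR1 line, replicate 3 was the lowest for 10 of the 12, against 38.7% of all tested probe sets, and this array also had the lowest Ksr1 signal of its line. Whether the amount of Ksr1 bears on the response genes was not tested. Without KSR1 replicate 3, 9 probe sets were called higher in the double line than in the KSR1 line, and without double-line replicate 2, 8.

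**Figure D4:**
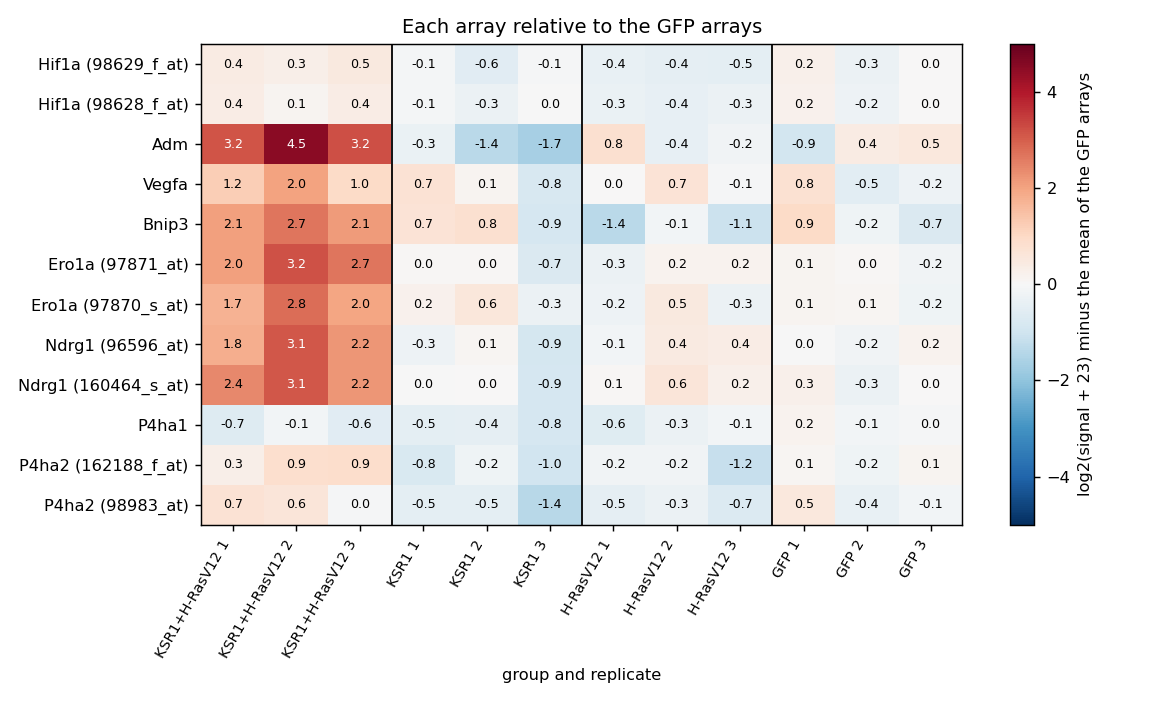
Each cell is log2(signal + 23) on 1 array minus the mean of the 3 GFP arrays for that probe set; columns run from the double line on the left to the GFP line on the right. The Adm, Bnip3, Ero1a and Ndrg1 rows are red on the 3 double-line arrays, darkest on replicate 2, and KSR1 replicate 3 is blue in most rows.

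The probe sets most like each gene were found by the Pearson correlation of log2 values over the 12 arrays, which is a description, since the 12 arrays form 4 groups. Ero1a 97871_at and Ndrg1 96596_at were among each other's 3 nearest (r = 0.981). The other neighbours of Ero1a 97871_at were the glucose-metabolism genes Pgm1 (0.986) and Pfkp (0.985). Those of Ndrg1 96596_at were Pgm1 (0.962) and the transcript 5031439G07Rik (0.960). Ero1a 97870_s_at was nearest to Pfkp (0.971), Pde1b (0.958) and Tmem268 (0.953). Bnip3 was nearest to Egln1 (0.980), then to Tpi1 (0.974) and the adenylate kinase gene Ak4 (0.959). Adm was nearest to the cholesterol transporter gene Npc1 (0.974), the creatine transporter gene Slc6a8 (0.959) and the lactate dehydrogenase subunit gene Ldhb (0.958). Vegfa was nearest to St6gal1 (0.925), Sirpa (0.912) and Pdk1 (0.902). Both Hif1a probe sets had Plxnd1 as their nearest (0.937 and 0.921). P4ha2 was nearest to Cln6 for 98983_at (0.925) and to Ulk1 for 162188_f_at (0.872).

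Of 40 other listed genes linked to HIF outside glycolysis, 24 were tested, and in the double line 6 were called higher and 2 lower against KSR1, 8 and 2 against H-RasV12, and 6 and 4 against GFP. This list shares Egln1 with the oxygen-sensing list and Lox with the list of collagen partners. Egln1 is thus counted again among the genes called higher in each of these comparisons. Of all tested probe sets, 8.16%, 7.1% and 7.71% were called higher in these comparisons and 6.92%, 7.71% and 7.93% lower. For KSR1 against GFP, 5 were called higher and 5 lower, against 4.97% and 6.81% of all tested. The median difference of the list from KSR1 was 0.23, against -0.07 for all tested probe sets. Bhlhe40, a transcriptional repressor induced by hypoxia, read 2288 ± 813 in the double line, 239 ± 54.0 in the KSR1 line, 541 ± 232 in the H-RasV12 line and 727 ± 146 in the GFP line. It was called higher in the double line in all 3 comparisons (3.10 ± 0.31, 2.07 ± 0.31 and 1.59 ± 0.31). Pdk1, a kinase that inhibits pyruvate dehydrogenase, read 683, 1370 and 888 in the double line, against 430, 346 and 214 in the KSR1 line (1.50 ± 0.28, limma adjusted p = 0.00212). Plaur, the urokinase receptor gene, fell in the double line against KSR1 (-1.39 ± 0.24, limma adjusted p = 0.00108). It read 430.3 ± 143 in the double line, 1129.9 ± 111 in the KSR1 line, 329.7 ± 69.1 in the H-RasV12 line and 315 ± 53.0 in the GFP line, and was called higher in the KSR1 line than in the GFP line (1.77 ± 0.24, limma adjusted p = 0.000174). Cxcl12, a chemokine gene, had the widest difference of the list from KSR1, 3.34 ± 0.31, but it was far from its highest there. It read 270 ± 33.1 in the double line, 5.90 ± 3.85 in the KSR1 line, 2316 ± 780 in the H-RasV12 line and 3630.3 ± 1745 in the GFP line. Cxcl12 was called lower in the double line than in the H-RasV12 line (-2.94 ± 0.31) and the GFP line (-3.54 ± 0.31), and its level in the KSR1 line lies under the pseudocount, which sets the size of the fold. Other wide differences of the list from GFP were -2.60 for Igfbp3 and 2.17 for Cp.

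**Figure D5:**
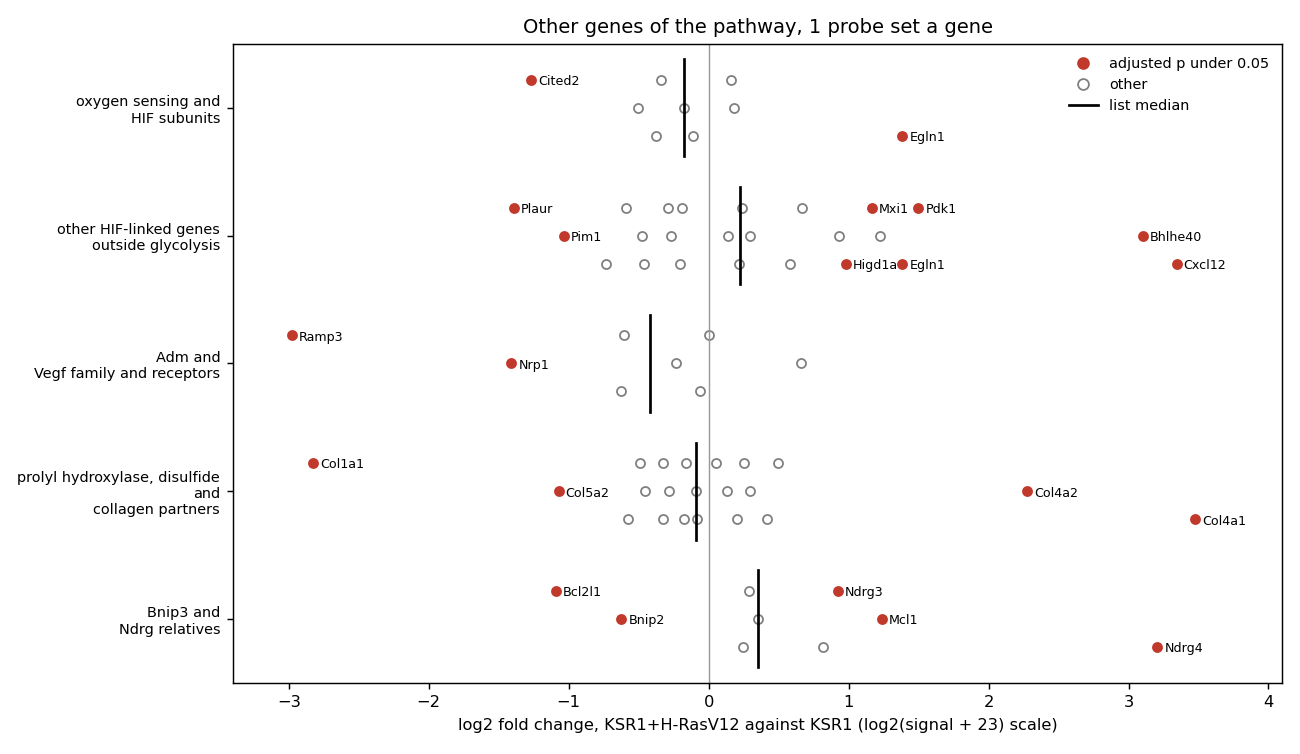
Log2 fold change of the double line against the KSR1 line for the tested genes of 5 lists of related genes, 1 probe set a gene and the 8 described genes left out; filled points have an adjusted p under 0.05 and are named, and bars are list medians. Calls lie on both sides of 0 in 4 of the 5 lists, and the receptor list has calls on the lower side alone. Egln1 is in both the oxygen-sensing list and the HIF-linked list.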

How the data were processed

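The submitters' processing notes name MAS5, without a version. The deposited table gives 1 intensity on a linear scale for each probe set and array. Per the labels, 2.5 ug of total RNA was labelled with a 1-cycle kit, and each of 4 lines was measured on 3 arrays. No further scaling was applied. Of 12488 probe sets, 66 were controls and were not tested. Names came from the platform annotation, brought up to date through gene identifiers with the RefSeq gene table of GRCm38.p6. One probe set annotated to Drg1 matches an older synonym of Ndrg1 but carries another gene identifier and was not counted. No probe set's level was set against another's.

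Signals were tested as log2(signal + 23), where 23 is the rounded 20th percentile of all values, so the change of a dim probe set is understated. The filter asked for more than 181.4, the table's median, on 3 arrays or more, which kept 6897 probe sets. One limma fit (limma 3.58.1, R 4.3.3) with 4 group means, 8 residual degrees of freedom and an intensity trend gave 5 pairwise comparisons and the interaction, 6 in all, two-sided. P-values were adjusted by Benjamini-Hochberg over the 6897 and called under 0.05. Errors of differences are limma standard errors, and errors of signals are SDs. The fit was tested on simulated data.

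The members and lists were chosen with earlier results of these data known. All probe sets of the 8 genes are reported. Each list is given by its counts, with up to 4 called genes of the largest change for the double line against KSR1. For the other comparisons some of the called genes are named, not always those of the largest change. A few uncalled genes are named for their role. A list gene is represented by its tested probe set with the highest mean. For likeness, the 3 nearest probe sets of other genes were taken, of which most are named. The alternatives were pseudocounts of 10 and 50, no filter and a filter on 6 arrays, quantile normalization, median centring, no intensity trend, the replicate number as a block, replicates 2 and 3 alone and each array left out, 21 in all. Arrays with the same replicate number deviated together between the double and KSR1 lines and between the KSR1 and GFP lines (correlations of 0.16 to 0.43 and 0.21 to 0.51, every pair over 0.1), but not in every pair of the other comparisons with the double line or of H-RasV12 against GFP, and no label ties the numbers to a batch. The block was therefore kept as an alternative, and its value stands beside a result of the 12 probe sets where it changes a call in those 2 comparisons. Promoters are RefSeq sequences.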

Additional observations from a re-analysis of the deposited data

Results flagged for a closer look

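The response to H-RasV12 with KSR1 (double line against KSR1 line) minus that without it (H-RasV12 line against GFP line) passed limma's interaction test for 9 of the 12 probe sets. On the log2(signal + 23) scale the difference was 4.68 for Adm, which read near background outside the double line, 2.92 for Bnip3, 2.82 and 2.00 for Ero1a, 2.49 and 2.54 for Ndrg1, 1.82 and 1.70 for P4ha2 and 1.08 for Hif1a 98629_f_at. The count of 9 was 8 with a filter on 6 arrays, which drops Adm. With 3 arrays a line, no single array was tested as an outlier.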

How the results depend on the processing

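Of the 35 calls among the 72 values of the 12 probe sets, 28 held under all alternatives that could be run, 7 were lost under some, and 0 changed direction. The lost calls were of Vegfa, Hif1a and P4ha2 98983_at or 162188_f_at, and no call of Adm, Bnip3, Ero1a or Ndrg1 was lost. Adm has no value under the filter on 6 arrays. Among the 37 uncalled values, 7 gained a call and 10 changed sign under some alternative. The same-numbered arrays of different lines had deviations that correlated at -0.0206 to 0.51 over all pairs of lines. For 10 of the 12 arrays, the mean correlation with arrays of other lines was highest for their own replicate number. With the replicate block, the counts of the 12 called were 11 against KSR1, 11 against H-RasV12, 7 against GFP, 10 in the interaction, and 1 for KSR1 against GFP (P4ha2 98983_at, -0.80, limma adjusted p = 0.027). The block calls added were of Hif1a 98628_f_at against KSR1 and in the interaction, Vegfa and P4ha2 98983_at against H-RasV12, and none was lost. Median centring called 2 for KSR1 against GFP, and replicates 2 and 3 alone 1, with 0 to 1 when 1 array was left out.

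Over all probe sets, H-RasV12 against GFP had 5 calls, 8 with no filter, 10 with the replicate block, 53 with replicates 2 and 3 alone, and 1 to 23 without 1 array. KSR1 against GFP had 482 to 934 and the interaction 339 to 679 without 1 array. Signs turned for uncalled values only. Vegfa for KSR1 against GFP was -0.0396 after quantile normalization and -0.0619 after centring, and with replicates 2 and 3 alone Adm was -0.76 and Ero1a 97870_s_at 0.17 for H-RasV12 against GFP. Without 1 array, H-RasV12 against GFP ran from -0.39 to 0.33 for Adm, -0.0417 to 0.60 for Vegfa, -0.0705 to 0.18 for Ero1a 97871_at and -0.26 to 0.12 for 97870_s_at. KSR1 against GFP ran from -0.34 to 0.42 for Vegfa, -0.14 to 0.74 for Bnip3, -0.33 to 0.0441 for Ero1a 97871_at, -0.0284 to 0.40 for 97870_s_at and -0.43 to 0.0137 for Ndrg1 160464_s_at. P4ha1 ran from -0.0253 to 0.24 for the double line against KSR1. The causes of these changes were not tested. Probe sets near background, Adm outside the double line among them, set only a weak bound on a difference.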
